A study of Mus musculus with 12 samples.

Results

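The glutathione S-transferase genes Gstm1, Gstm2, Gsta3, Gsta4, Gstp1, Gstt1, Gsto1, Mgst1 and Mgst3 were followed through RNA-seq libraries of mouse bone marrow-derived macrophages (BMDMs). These 9 of the 35275 genes counted were chosen from measured values of the same libraries. Their levels, differences and calls are therefore given as a description, and no test of them is read. Wildtype bone marrow cells were grown for 6 days with M-CSF, IL-4 and IL-10, cytokines that drive macrophages toward an M2 phenotype. The 3 groups were DMSO, the solvent control, olaparib, an inhibitor of poly(ADP-ribose) polymerases (PARPs), and MNA, a methylated nicotinamide related to NAD metabolism. Each group had 4 libraries numbered 1 to 4, and the study's methods give donor mice of 6 to 10 weeks and of either sex without assigning a sex or a strain to a library. The doses are not in the labels and are not given here. All cells had been cultured outside the animal with the same 3 cytokines, so the control is itself a cytokine-treated macrophage.

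Glutathione S-transferases join the tripeptide glutathione to reactive, electron-loving molecules, which makes these easier to export from the cell. The cytosolic enzymes form classes named by Greek letters (alpha, mu, pi, theta and omega), while the microsomal ones belong to the MAPEG family of membrane proteins, which also makes leukotrienes and prostaglandin E. Many of the genes can be switched on by NRF2, a transcription factor that is released when oxidants or electrophiles modify its inhibitor KEAP1 and that binds antioxidant response elements together with small MAF proteins.

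Because such an element can act from the promoter, the promoters of the genes were searched for its core letters, TGACNNNGC, on both strands, and no other motif was searched. An element outside the short windows searched would not be seen. The windows are those of RefSeq on GRCm38.p6 and run from 250 bases before to 50 bases after a gene's start, and 10 windows of 8 of the 9 genes were present. The table held no window for Gsta4. The core was found in 2 of these 8 genes, once in Gsta3 on the sense strand beginning at position -121 from the start, and once in Mgst1 on the opposite strand beginning at position -56. The Mgst1 window follows a RefSeq start that lies inside the gene span given further below, so that core lies within the span. For comparison, 14.0% of all 27025 genes with a window, and 12.4% of all windows, held it. Of the list of other transferases 2 of 21 genes held it, and of other known NRF2 target genes 3 of 7. The 2 windows with the core and that of Gstm2, which has none, are printed 5′ to 3′ on the gene's strand, with the core in capitals (in Mgst1 as its reverse complement). They are Gsta3 (chr1:21240335-21240634, plus strand), Mgst1 (chr6:138140277-138140576, plus strand) and Gstm2 (chr3:107986371-107986670, minus strand).
Gsta3: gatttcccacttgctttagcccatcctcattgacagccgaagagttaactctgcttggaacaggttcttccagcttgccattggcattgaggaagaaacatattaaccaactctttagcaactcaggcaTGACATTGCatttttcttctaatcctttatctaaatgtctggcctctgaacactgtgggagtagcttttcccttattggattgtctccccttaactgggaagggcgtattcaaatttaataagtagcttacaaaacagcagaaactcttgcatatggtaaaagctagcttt
Mgst1: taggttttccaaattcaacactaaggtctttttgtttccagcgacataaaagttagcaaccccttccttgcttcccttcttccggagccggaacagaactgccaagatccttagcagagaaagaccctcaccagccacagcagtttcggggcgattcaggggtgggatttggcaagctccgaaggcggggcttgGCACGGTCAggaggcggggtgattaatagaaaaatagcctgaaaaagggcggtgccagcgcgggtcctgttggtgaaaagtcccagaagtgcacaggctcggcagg
Gstm2: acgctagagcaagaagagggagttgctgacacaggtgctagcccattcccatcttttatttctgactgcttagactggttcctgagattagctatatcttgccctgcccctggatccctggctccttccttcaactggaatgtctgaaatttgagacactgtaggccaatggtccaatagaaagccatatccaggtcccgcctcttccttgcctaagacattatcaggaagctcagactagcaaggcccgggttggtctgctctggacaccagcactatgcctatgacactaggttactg

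Total counts per library were 21146291 to 31446849. At that depth 3 counts, taken as the floor, correspond to 0.0952 to 0.141 CPM (counts per 1000000, on library sizes scaled by TMM), the level scale used here. The genes of a list of macrophage markers were present in every group, 7 of 7. Their summed level was 3864 to 5000 CPM with DMSO, 8451 to 10185 with olaparib and 3588 to 7393 with MNA. Lyz2 was the largest part of the sum with olaparib (mean 6009 CPM, against 1918 with DMSO). Fcgr1 was low, with means of 0.916, 1.31 and 0.397 CPM with DMSO, olaparib and MNA, and was at the floor in an MNA library (0.116 CPM). MNA replicate 2 stood apart: in 10498 of the 12849 genes that passed the filter on low counts (81.7%) it lay nearer the DMSO mean than the mean of the other 3 MNA libraries, and so it did in 8 of the 8 transferase genes that passed. It is therefore named separately, and fold changes of these 8 genes for MNA against DMSO are given with and without it. MNA replicate 4 carried the highest level of neutrophil markers (50.4 CPM in sum, against at most 6.64 in the other MNA libraries) and of erythroid markers (54.5 CPM against at most 0.247). Of the 3 eosinophil markers Prg2 and Epx were at 0 with olaparib, while Siglecf was at 30.5 to 58.2 CPM against 3.75 to 6.95 with DMSO. Dendritic cell markers summed to 2411 to 2670 CPM with olaparib against 1564 to 1800 with DMSO, nearly all of it Itgax (means 2545 and 1653). Of the others Zbtb46 was similar (17.3 and 16.4), Xcr1 was lower with olaparib (0.784 and 1.79), and Flt3 and Siglech had at most 2 counts in these libraries. T and NK cell markers summed to 1.13 to 2.93 against 0.444 to 0.860. Within the macrophage list Cd68 was lower with olaparib (813 to 869 CPM against 1095 to 1309), unlike its sum. The part of these cell types in the values that follow was not tested, and in bulk RNA fewer cells of a type cannot be told apart from less RNA per cell.

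In each of the 3 comparisons the largest log2 fold change among these genes belonged to one of the alpha class, Gsta4 for each treatment against DMSO and Gsta3 between the treatments. Gsta3 (ENSMUSG00000025934, chr1:21240589-21265661, plus strand), whose product conjugates glutathione and also isomerizes steroids, stood at 2.16, 2.03, 1.84 and 2.25 CPM in DMSO replicates 1 to 4. It stood at 11.3, 11.7, 11.5 and 14.3 CPM with olaparib. With MNA it stood at 0.576, 0.425 and 0.483 CPM in replicates 1, 3 and 4 and at 1.68 CPM in replicate 2. All olaparib libraries were thus above all DMSO libraries, and all MNA libraries, replicate 2 included, were below them. The means were 2.07 ± 0.177 (SD, n = 4) with DMSO, 12.2 ± 1.40 with olaparib and 0.792 ± 0.598 with MNA, or 0.494 ± 0.0763 (n = 3) without MNA replicate 2. The fitted log2 fold change was 2.56 ± 0.31 (SE), a 5.89-fold higher level, for olaparib against DMSO, or 2.56 ± 0.13 without MNA replicate 2 in the shared fit. For MNA against DMSO it was -1.36 ± 0.34 with all libraries and -2.06 ± 0.20 without MNA replicate 2. Olaparib and MNA libraries therefore differed by a log2 fold change of 3.92 ± 0.34, or 4.62 ± 0.18 without that library. Only 1 count over the 12 libraries fell on the gene Gm28836, which overlaps Gsta3.

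Gsta4 (ENSMUSG00000032348, chr9:78182774-78209349, plus strand) encodes the alpha-class enzyme known for conjugating 4-hydroxynonenal, a product of lipid peroxidation. Its level was 0.281, 0.0688, 0.268 and 0.286 CPM in the DMSO libraries, which is 6, 2, 8 and 9 counts. With olaparib it was 2.54, 1.45, 1.94 and 2.47 CPM. MNA replicates 1, 3 and 4 had 2.71, 4.25 and 5.63 CPM and MNA replicate 2 had 0.501 CPM. Gsta4 was thus higher than in every DMSO library in each olaparib and each MNA library, whereas Gsta3 lay on opposite sides of DMSO in the 2 treatments. The log2 fold change was 3.20 ± 0.65 for olaparib and 3.84 ± 0.65 for MNA. Without MNA replicate 2 in the shared fit it was 3.21 ± 0.38 for olaparib and 4.20 ± 0.38 for MNA. Without MNA replicate 4, the library with neutrophil and erythroid RNA, it was 3.44 ± 0.63 for MNA. The olaparib and MNA libraries overlapped (log2 fold change -0.63 ± 0.52), but not when MNA replicate 2 was left out (-0.99 ± 0.30). Since the DMSO level rests on 2 to 9 counts per library, these fold changes depend on the few counts of the control.

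**Figure D1:**
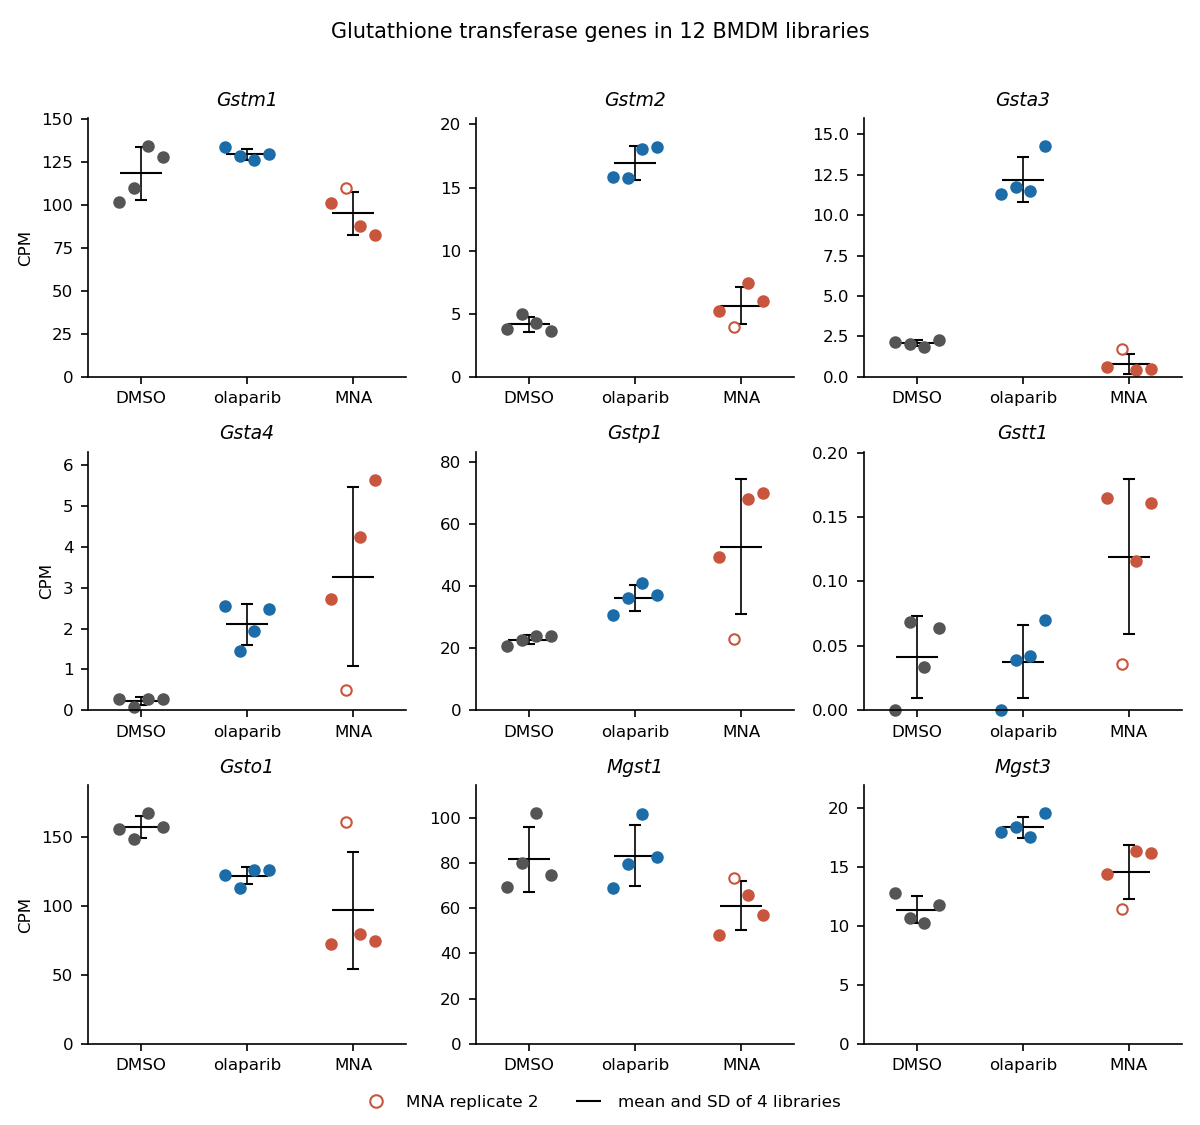
Level in CPM (vertical axes, from 0) of the 9 transferase genes in each of 12 libraries, grouped by treatment; points are libraries 1 to 4 from left to right, the open point is MNA replicate 2, and lines with bars give the mean and SD of 4 libraries. Gsta3 and Gstm2 with olaparib lie apart from all other libraries, Gsta4 and Gstp1 are highest in MNA replicates 3 and 4, and the open point lies near the DMSO points for most genes.

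The mu-class genes Gstm1 and Gstm2 are neighbours on chromosome 3, but their levels followed different patterns. Gstm2 (ENSMUSG00000040562, chr3:107981702-107986453, minus strand) was at 3.62 to 4.95 CPM in the DMSO libraries and at 15.9, 15.7, 18.0 and 18.2 CPM in the olaparib libraries. MNA replicates 1, 3 and 4 had 5.22, 7.41 and 5.99 CPM and MNA replicate 2 had 3.90 CPM, which is inside the DMSO range. The olaparib libraries were all above the rest (log2 fold change 2.03 ± 0.18 against DMSO and 1.59 ± 0.17 against MNA). For MNA against DMSO the log2 fold change was 0.44 ± 0.18, or 0.58 ± 0.14 without MNA replicate 2.

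Gstm1 (ENSMUSG00000058135, chr3:108012255-108017973, minus strand) encodes the mu-class enzyme that detoxifies epoxides and other electrophiles, and with Gsto1 it led the set in level per length in DMSO cells. It had 102, 109.9, 134 and 128 CPM with DMSO and 134, 129, 126 and 129.7 CPM with olaparib, and these ranges overlapped. MNA replicates 1, 3 and 4 had 101, 87.8 and 82.4 CPM, all under the lowest DMSO library, and MNA replicate 2 had 110.0 CPM. The log2 fold change was 0.13 ± 0.10 for olaparib and -0.31 ± 0.10 for MNA (-0.39 ± 0.09 without MNA replicate 2). Of the 31-base words in its transcripts 28.8% also occurred in another gene, most of them in the pseudogene Gstm2-ps1, against 12.2% for Gstm2, so that the counting could have lost or shared some reads of these genes.

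Gstp1 (ENSMUSG00000060803, chr19:4035407-4037985, minus strand) is the pi-class enzyme, which besides conjugating glutathione adds it to protein cysteines and binds stress kinases. Its level was 20.7 to 23.9 CPM with DMSO and 30.7, 36.0, 41.0 and 37.0 CPM with olaparib. MNA replicates 1, 3 and 4 had 49.5, 67.9 and 69.9 CPM, above every other library, and MNA replicate 2 had 23.0 CPM, inside the DMSO range. The log2 fold change was 0.67 ± 0.26 for olaparib, or 0.67 ± 0.11 without MNA replicate 2 in the shared fit. For MNA it was 1.21 ± 0.26, or 1.45 ± 0.12 without MNA replicate 2. Without MNA replicate 4 it was 1.04 ± 0.26 for MNA. Of its 31-base words 38.5% were shared with Gstp2, to which no DMSO library had a read assigned and the other libraries at most 5. Some reads of the 2 genes may therefore not be told apart. The reads are longer than these words, so the share of reads affected is not known.

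The omega-class gene Gsto1 (ENSMUSG00000025068, chr19:47854970-47864790, plus strand), whose enzyme acts as a thioltransferase and dehydroascorbate reductase, had lower levels with both treatments outside MNA replicate 2. It had 156, 148, 167 and 157 CPM with DMSO and 122, 113, 126 and 126 CPM with olaparib. MNA replicates 1, 3 and 4 had 72.3, 79.5 and 74.7 CPM and MNA replicate 2 had 160.4 CPM. All olaparib libraries were below all DMSO libraries, and the 3 MNA libraries were lower again, while MNA replicate 2 was inside the DMSO range. The log2 fold change was -0.37 ± 0.21 for olaparib and -0.70 ± 0.21 for MNA. Without MNA replicate 2 in the shared fit it was -0.37 ± 0.06 for olaparib and -1.06 ± 0.06 for MNA. Between olaparib and MNA it was 0.33 ± 0.21 with all libraries and 0.69 ± 0.06 without MNA replicate 2. Gsto1 overlaps Cfap43 on the opposite strand, which had 4622 counts over the 12 libraries against 40659 for Gsto1, and the sources used here do not state which strand setting the counts come from. The theta-class gene Gstt1 (ENSMUSG00000001663, chr10:75783813-75798584, minus strand), known for acting on halogenated small molecules, was at or near the floor. It had 0, 2, 1 and 2 counts with DMSO, 0, 1, 1 and 2 with olaparib and 4, 1, 3 and 4 with MNA. It was the only one of the 9 genes that did not pass the filter, and no fold change is given for it.

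The microsomal gene Mgst1 (ENSMUSG00000008540, chr6:138140316-138156755, plus strand), whose product protects membranes from lipid peroxides, had 69.7 to 102 CPM with DMSO and 69.0 to 102 CPM with olaparib. MNA replicates 1, 3 and 4 had 48.2, 65.8 and 57.0 CPM and MNA replicate 2 had 73.2 CPM. The DMSO and olaparib ranges were nearly identical (log2 fold change 0.03 ± 0.15, 95% interval -0.28 to 0.33). With the replicate number as a block that fold change was 0.03 ± 0.09 (95% interval -0.14 to 0.20). The MNA libraries other than replicate 2 lay below both (-0.42 ± 0.15 against DMSO, and -0.52 ± 0.15 without MNA replicate 2). Mgst3 (ENSMUSG00000026688, chr1:167371966-167393841, minus strand), a microsomal enzyme with transferase and peroxidase activity, had 12.8, 10.7, 10.2 and 11.7 CPM with DMSO. It had 17.9, 18.3, 17.5 and 19.5 CPM with olaparib and 14.4, 16.3 and 16.2 CPM in MNA replicates 1, 3 and 4, with 11.4 CPM in MNA replicate 2. The olaparib libraries were all above both other groups, and the 3 MNA libraries were between them and DMSO. The log2 fold change of Mgst3 was 0.69 ± 0.12 for olaparib and 0.36 ± 0.12 for MNA, or 0.46 ± 0.09 for MNA without replicate 2.

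**Figure D2:**
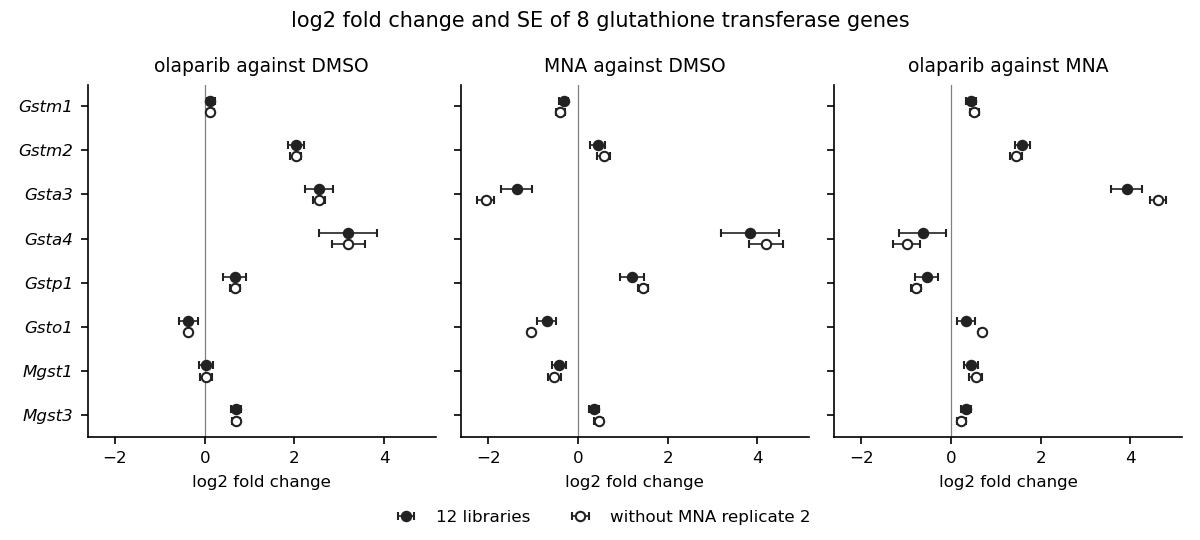
Fitted log2 fold change (horizontal axes) with its SE (bars) of the 8 transferase genes that passed the filter, for each of the 3 comparisons; filled points use 12 libraries and open points leave out MNA replicate 2. Olaparib and MNA lie on opposite sides of DMSO for Gsta3 (2.56 and -1.36) and on the same side for Gsta4 (3.20 and 3.84), and leaving out MNA replicate 2 moves the values of MNA against DMSO away from 0.

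Counted over the set, 4 of the 8 genes that passed the filter (Gstm2, Gsta3, Gsta4 and Mgst3) were called higher with olaparib than with DMSO and 0 lower, at a Benjamini-Hochberg adjusted p under 0.05 in edgeR's quasi-likelihood test over all genes. Of all 12849 genes 14.3% were called higher and 12.8% lower in that comparison. Without MNA replicate 2 in the shared fit Gstp1 was also called higher and Gsto1 lower, beside 22.5% and 21.2% of all genes. For MNA against DMSO 3 genes were called higher (Gsta4, Gstp1 and Mgst3) and 3 lower (Gstm1, Gsta3 and Gsto1), beside 16.3% and 12.3% of all genes. Without MNA replicate 2 it was 4 and 4, beside 27.2% and 26.9%. Between olaparib and MNA 3 genes were called higher with olaparib (Gstm1, Gstm2 and Gsta3) and 0 lower, where 10.9% and 10.9% of all genes were called, and without MNA replicate 2 it was 5 and 2, beside 21.5% and 20.7%. As the genes were chosen from these values, the counts describe the choice and nothing is read from them. The 4 DMSO libraries serve as the control of each treatment.

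To compare levels between genes, CPM was divided by the length of each gene's exons in kilobases (kb). In DMSO cells Gstm1 (80.5 ± 10.4 CPM per kb) and Gsto1 (77.6 ± 3.91) led with overlapping ranges, followed by Mgst1 (40.6 ± 7.12), Gstp1 (14.7 ± 0.978), Mgst3 (10.3 ± 1.06), Gstm2 (2.47 ± 0.354), Gsta3 (0.477 ± 0.0408), Gsta4 (0.178 ± 0.0830) and Gstt1 (0.0271 ± 0.0207), none of which overlapped with its neighbour. The order was the same with olaparib, where Gstm1 (88.0 ± 2.15 CPM per kb) no longer overlapped with Gsto1 (60.2 ± 2.97). With all 4 MNA libraries the order was Gstm1 (mean 64.7, range 55.9 to 74.7 CPM per kb), Gsto1 (47.8, 35.8 to 79.3), Gstp1 (34.0, 14.9 to 45.2) and Mgst1 (30.3, 24.0 to 36.4), and neighbours in it overlapped. In MNA cells without replicate 2 Gstm1 (61.4 ± 6.51 CPM per kb) was followed by Gstp1 (40.3 ± 7.27) and Gsto1 (37.3 ± 1.80), which overlapped each other. There Gsta4 (3.31 ± 1.15 CPM per kb) stood above Gsta3 (0.114 ± 0.0176), the reverse of their order in DMSO and olaparib cells. The alpha-class transcripts with the largest fold changes thus remained far below Gstm1 in level in all 3 groups.

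Across the 12 libraries the Pearson r of log2 CPM between pairs of the 8 genes ran from -0.935 for Gsto1 and Gstp1 to 0.897 for Gsta4 and Gstp1, over 28 pairs. It was 0.876 for Gstm2 and Mgst3 and 0.815 for Gsta3 and Gstm1. Among the 9655 genes outside the lists that averaged 100 counts or more, the 2 with the highest r to Gstm2 were Inka2 (0.991) and Hvcn1 (0.982), and to Gsta3 Zfp706 (0.987) and Hdgf (0.985). For Gsta4 they were the pseudogene Gm28437 (0.976) and Dhrs11 (0.973), for Gstp1 Ptms (0.993) and Lrp10 (0.991), and for Gsto1 Rai14 (0.990) and Tpt1 (0.989). For Mgst3 they were Cyb5a (0.980) and Cat (0.978), the hydrogen peroxide-degrading catalase, and for Gstm1 Pnpla7 (0.949) and Stk11ip (0.940). For Mgst1 the highest r was that of Apoe (0.951). These values describe the same 12 libraries, which share the difference between the 3 groups, and carry no test.

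The other genes of glutathione metabolism were taken from 7 lists of 87 genes, of which 73 passed the filter, and adjusted p over all genes are given for the single genes named. These lists too were written with earlier results known, so their counts are given as a description beside the share of all genes called. With olaparib 34 of the 73 were called higher and 6 lower, beside 14.3% and 12.8% of all genes, with a median log2 fold change of 0.55 against 0.0038 over all genes tested. Among the other transferases and MAPEG relatives 6 of 14 rose and 0 fell. Alox5ap, the partner protein of 5-lipoxygenase, rose from 80.2 ± 12.6 to 211 ± 7.58 CPM (n = 4; log2 fold change 1.40 ± 0.14, adjusted p = 6.03e-05). The alpha-class genes Gsta2 (0.251 ± 0.152 to 6.67 ± 3.25 CPM, 4.78 ± 0.53, adjusted p = 0.000156) and Gsta1 (0.113 ± 0.0975 to 1.42 ± 0.316 CPM, 3.57 ± 0.53, adjusted p = 0.00101) rose too. They share 60.7% and 92.9% of their 31-base words with other genes, so how their reads were divided is uncertain. Gsta2 had 4 to 10 and Gsta1 1 to 8 counts per DMSO library, so these fold changes depend on few control counts. Of the untested relatives Gstm3 and Gstt4 had 0 counts in every library.

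Glutathione synthesis showed both directions with olaparib, with 5 of 9 genes called higher and 3 lower. Beside these and the list counts below, 14.3% of all genes were called higher and 12.8% lower. Gss, glutathione synthetase (18.6 ± 2.40 to 46.7 ± 3.55 CPM, log2 fold change 1.33 ± 0.12, adjusted p = 3.11e-05), Gclm, the modifier subunit of the rate-limiting ligase (1.82 ± 0.20, adjusted p = 0.000125), and Slc7a11, the cystine carrier (1.48 ± 0.20, adjusted p = 0.00053), rose. The 3 that fell, outside the naming rule and named after their values were seen, were Cth, which makes cysteine from cystathionine (6.43 ± 1.58 to 0.688 ± 0.412 CPM), Chac1, which degrades glutathione (49.7 ± 6.68 to 15.3 ± 2.81 CPM), and Slc3a2, the partner chain of Slc7a11 (789 ± 79.1 to 447 ± 15.6 CPM). In the reduction and peroxidase list 8 of 14 rose and 0 fell, led by G6pdx, the first NADPH-making enzyme of the pentose phosphate pathway (0.88 ± 0.14, adjusted p = 0.00148), Idh1, another NADPH source (0.69 ± 0.12, adjusted p = 0.00226), and the secreted peroxidase Gpx3 (2.27 ± 0.40, adjusted p = 0.00257). Among export and mercapturate genes 4 of 13 rose and 0 fell, with the efflux pumps Abcg2 (0.81 ± 0.12, adjusted p = 0.00101) and Abcc3 (1.28 ± 0.32, adjusted p = 0.0125) and the aminoacylase Acy3 (0.99 ± 0.21, adjusted p = 0.00657). Of 4 other glutathione-using enzymes 1 rose, Esd (0.29 ± 0.09, adjusted p = 0.0349), and leaving out any one of 7 libraries (DMSO replicates 1, 2 and 3 and each olaparib library) ended its call, with an adjusted p of 0.0622 to 0.0884, as did applying no filter on low counts (adjusted p = 0.0601).

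All 8 other known NRF2 target genes rose with olaparib. Of all genes 14.3% were called higher and 12.8% lower in that comparison, and the lists were written with earlier results known. The 3 with the smallest p were Cbr3, a carbonyl reductase (26.1 ± 1.87 to 62.3 ± 5.81 CPM, log2 fold change 1.25 ± 0.11, adjusted p = 2.51e-05), Nqo1, the quinone reductase (4.08 ± 0.945 to 24.3 ± 2.84 CPM, 2.58 ± 0.30, adjusted p = 0.00023), and the epoxide hydrolase Ephx1 (61.4 ± 8.37 to 168 ± 3.83 CPM, 1.45 ± 0.20, adjusted p = 0.000736). Of the 11 transcription regulators 2 rose and 3 fell. Nfe2l2, which encodes NRF2, rose from 357 ± 44.6 to 699 ± 29.6 CPM (0.97 ± 0.22, adjusted p = 0.00923), while the small MAF gene Mafk fell (-0.51 ± 0.10, adjusted p = 0.0048), as did Arnt, the partner of the aryl hydrocarbon receptor (-0.17 ± 0.05, adjusted p = 0.0206). Arnt was no longer called without DMSO replicate 4 (adjusted p = 0.0616), without olaparib replicate 4 (0.0587) or with no filter on low counts (0.0654).

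**Figure D3:**
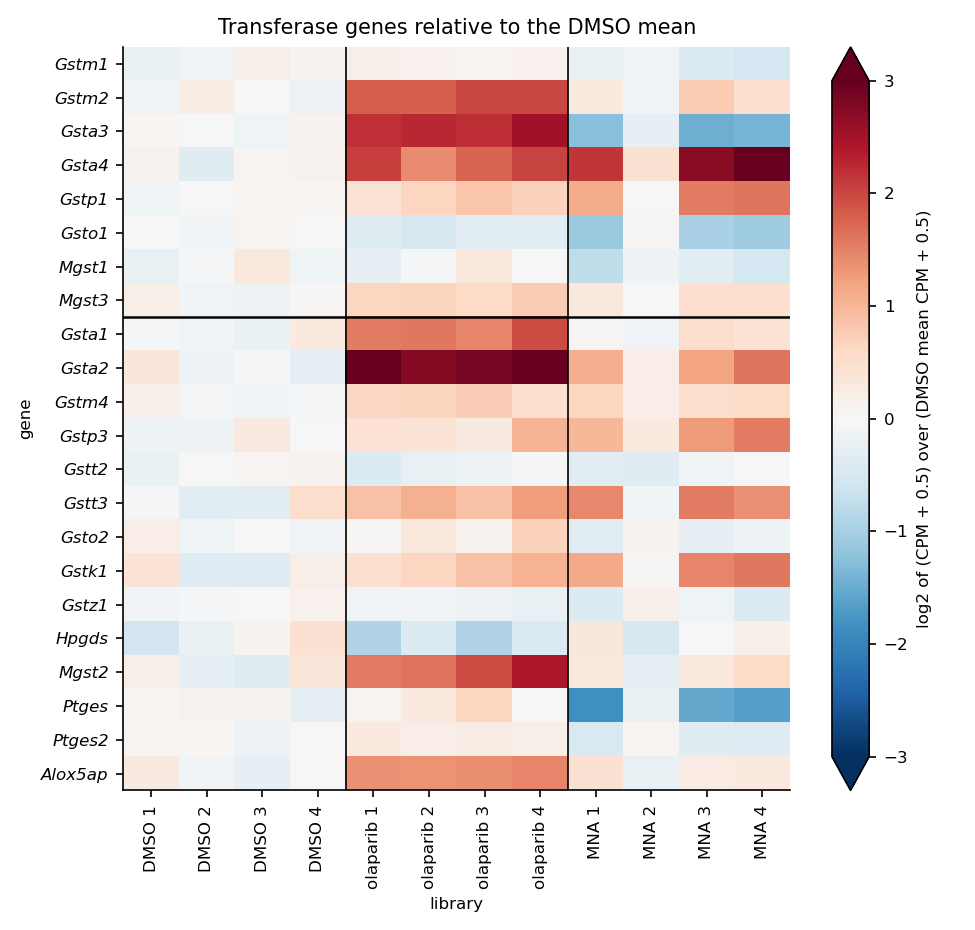
Level of the 8 transferase genes described (above the line) and of 14 further transferases and MAPEG relatives in each library, as log2 of CPM plus 0.5 over the DMSO mean plus 0.5, on a colour scale from -3 to 3 beyond which the colour saturates. The olaparib columns are red for Gstm2, Gsta1, Gsta2, Gsta3, Gsta4, Mgst2 and Alox5ap. The columns of MNA replicates 1, 3 and 4 are red for Gsta2, Gsta4, Gstp1, Gstp3, Gstt3 and Gstk1. They are blue for Gsta3, Gsto1 and Ptges, and MNA replicate 2 is pale throughout.

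With MNA 27 of the 73 other genes were called higher than with DMSO and 9 lower (38 and 20 without MNA replicate 2), beside 16.3% and 12.3% of all genes (27.2% and 26.9% without it), with a median log2 fold change of 0.27 against 0.0002 over all genes tested. The count lower was thus close to the share over all genes, with and without that library. Of the other transferases 5 of 14 rose and 1 fell. Gstm4 (4.78 ± 0.389 to 6.94 ± 0.950 CPM, log2 fold change 0.54 ± 0.12, adjusted p = 0.0163), Gstp3 (3.38 ± 0.81, adjusted p = 0.0177), which had at most 5 counts in a DMSO library and 28 in an MNA library, and Gsta2 (2.19 ± 0.55, adjusted p = 0.0202) had the smallest p. In synthesis 4 of 9 rose and 1 fell, led by Gclc, the catalytic subunit of the ligase (58.0 ± 2.91 to 79.1 ± 10.4 CPM, 0.45 ± 0.09), Gclm (0.94 ± 0.19) and Slc7a11 (0.96 ± 0.20). In reduction 4 of 14 rose and 1 fell, led by Gsr, glutathione reductase (48.6 ± 1.31 to 104 ± 36.9 CPM, 1.10 ± 0.22), Pgd (1.02 ± 0.20) and G6pdx (0.68 ± 0.14). These 6 shared an adjusted p of 0.0142. Of the export and mercapturate genes 5 of 13 rose and 2 fell, with the glutathione-conjugate pumps Abcc3 (8.48 ± 0.836 to 27.8 ± 12.3 CPM, 1.71 ± 0.32, adjusted p = 0.0142), Abcc1 (1.26 ± 0.25, adjusted p = 0.0142) and Abcc4 (0.73 ± 0.16, adjusted p = 0.0155) higher.

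Of the other NRF2 target genes 6 of 8 rose with MNA and 0 fell, beside 16.3% and 12.3% of all genes. Prdx1, a peroxiredoxin, rose from 1708 ± 229.6 to 5794 ± 2513 CPM (log2 fold change 1.76 ± 0.30), Srxn1, which repairs oxidized peroxiredoxins, by 1.42 ± 0.27 and Osgin1 by 1.49 ± 0.30, each at an adjusted p of 0.0142. Nfe2l2 rose from 357 ± 44.6 to 759 ± 263 CPM (1.09 ± 0.22, adjusted p = 0.0142). Without MNA replicate 2 the MNA means were 7028 ± 586 CPM (n = 3) for Prdx1, 889 ± 47.7 for Nfe2l2, 122 ± 11.4 for Gsr and 33.9 ± 0.544 for Abcc3. Of the 11 regulators 2 rose and 2 fell, and the others named by the smallest p were Ahrr, the repressor of the aryl hydrocarbon receptor (1.67 ± 0.46, adjusted p = 0.0251), and Maff (-0.89 ± 0.30, adjusted p = 0.0421). Among the 4 other glutathione-using enzymes Glo1, glyoxalase 1, rose (0.35 ± 0.08, adjusted p = 0.0151), and Esd (-0.33 ± 0.09, adjusted p = 0.0242) and Adh5, the S-nitrosoglutathione reductase (-0.39 ± 0.12, adjusted p = 0.0316), fell. Without MNA replicate 3, and likewise without MNA replicate 4, the genes Gstm4, Gstp3, Gsta2, Glo1, Esd, Adh5, Abcc4, Ahrr and Maff were no longer called, with adjusted p of 0.0522 to 0.109 and 0.0522 to 0.119. Gsta2, Esd, Adh5, Ahrr and Maff also lost their call without MNA replicate 1 (0.0538 to 0.107) and without DMSO replicate 2, 3 or 4 (0.0502 to 0.0986), and Maff without DMSO replicate 1 or any olaparib library (0.0542 to 0.0577).

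The MNA calls against DMSO also depended on which libraries shared the fit. With the 8 DMSO and MNA libraries alone, edgeR called 0 of 12379 genes at an adjusted p under 0.05, where the lowest adjusted p was 0.064, although 2622 were higher and 2106 lower at an unadjusted p under 0.05. Of the glutathione genes outside the 9, 31 were then higher and 13 lower at an unadjusted p. DESeq2 on 12 libraries called 31 and 11 of them, beside 2434 and 2015 of 12849 genes. With MNA replicate 2 left out of that smaller fit, a setting chosen after seeing the data, edgeR called 37 higher and 19 lower of 71. Beside these stood 3428 and 3234 of 12589 genes, so the count lower was close to the share over all genes. The common dispersion, the spread between replicates that edgeR estimates, was 0.0333 with all 12 libraries and 0.0123 without MNA replicate 2. Leaving out other single libraries lowered the counts of 27 and 9 to 12 and 0 without MNA replicate 3, 12 and 0 without MNA replicate 4, 16 and 0 without MNA replicate 1, 17 and 2 without DMSO replicate 2 and 17 and 2 without DMSO replicate 3. The share of all genes called in these settings is not given, so nothing about the glutathione genes is read from these counts.

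**Figure D4:**
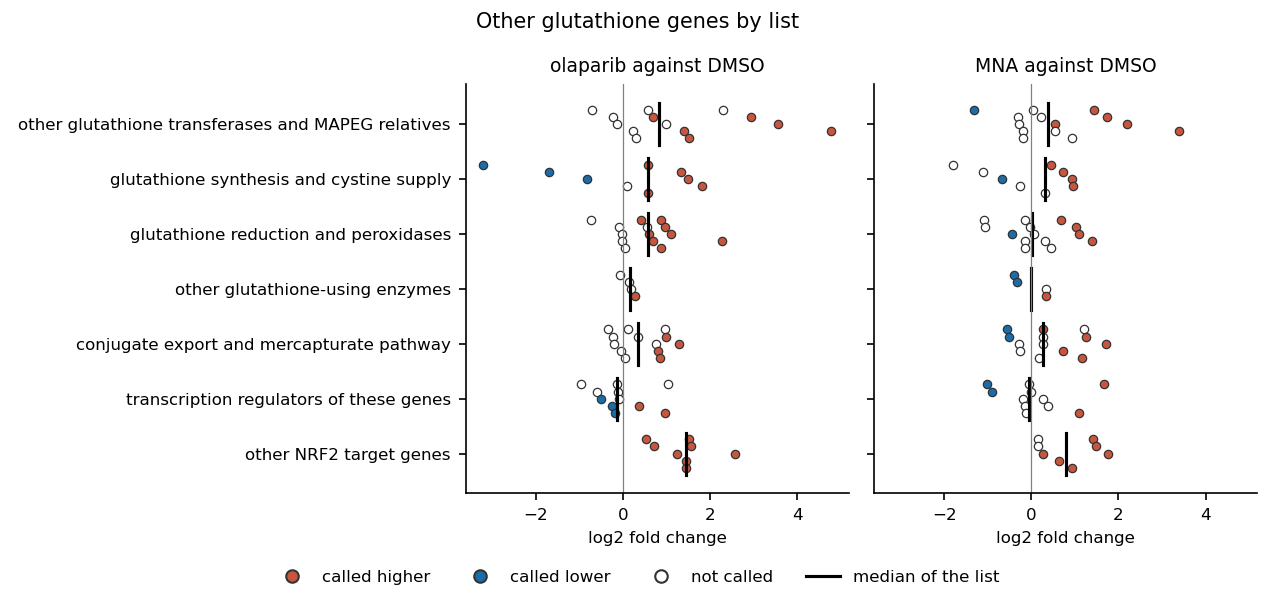
Log2 fold change (horizontal axes) of the 73 tested glutathione genes outside the 9 described, by list, for olaparib and for MNA against DMSO in the fit of 12 libraries; points are genes, filled red where called higher and blue where called lower, and black lines are list medians. All 8 other NRF2 targets were called higher with olaparib (median 1.45) and 6 of 8 with MNA (median 0.79). Of all genes 14.3% and 16.3% were called higher in these comparisons.

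Directly between the treatments, 22 of the 73 other genes were higher with olaparib than with MNA and 5 lower (30 and 17 without MNA replicate 2), beside 10.9% and 10.9% of all genes (21.5% and 20.7% without it). Of the genes named above, Abcg2 had the smallest adjusted p, at 18.3 ± 2.13 CPM with olaparib and 7.29 ± 0.653 with MNA (log2 fold change 1.33 ± 0.12, adjusted p = 4.21e-05), with DMSO between them at 10.5 ± 1.46. Cbr3 (1.09 ± 0.11, adjusted p = 4.91e-05), Alox5ap (1.18 ± 0.14, adjusted p = 0.000158), Gss (1.01 ± 0.12, adjusted p = 0.000163) and Nqo1 (1.65 ± 0.29, adjusted p = 0.00227) were higher with olaparib. Prdx1 (-0.32 ± 0.29), Gsr (-0.23 ± 0.22), Abcc3 (-0.42 ± 0.31) and Nfe2l2 (-0.12 ± 0.22) did not pass the test with all libraries. Without MNA replicate 2 these 4 were lower with olaparib, Prdx1 by a log2 fold change of -0.60 ± 0.09, Gsr of -0.46 ± 0.07, Abcc3 of -0.71 ± 0.11 and Nfe2l2 of -0.35 ± 0.08.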

How the data were processed

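RNA of 12 mouse BMDM libraries, 4 per group, was analysed. The authors deposited raw counts per Ensembl gene for each library, made from single-end reads of stranded mRNA libraries aligned with STAR 2.5.2b to GRCm38.p5; the submitters' processing notes also name DESeq2 and R 3.6.0. Which strand column of STAR was used is not given in the sources used here. Each file holds 35275 genes, of which 34490 had a symbol in GENCODE M21, and total counts were 21146291 to 31446849 per library. The 9 genes and all gene lists were chosen with earlier results of these data known.

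Counts were fitted in R 4.3.3 with edgeR 4.0.16 (TMM, filterByExpr with a minimum count of 10 and a minimum total of 15, quasi-likelihood F test, 1 fit of 12 libraries with group as the only term), which tested 12849 genes. Calls required an adjusted p (Benjamini-Hochberg) under 0.05, and each SE was derived from the F statistic. The 3 groups shared 1 estimate of spread per gene, so the SE for olaparib against DMSO also reflects MNA replicate 2. CPM used TMM-scaled library sizes, and CPM per kb the exon length in GENCODE M21. The script was tested on simulated data. Named beside the 9 genes were the called genes of each list with the smallest p, up to 3 per list and treatment, and the 2 genes outside the lists nearest in Pearson r, except for 1 that is not reported here. Alternatives were DESeq2 1.42.0, RLE normalization, no filter, fits of 2 groups alone, the replicate number as a block, and each library left out. Tables were joined with Python 3.11.15, pandas 2.3.3 and numpy 2.4.6.

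Deviations of DMSO and olaparib libraries with the same number from their group means correlated at r = 0.227, 0.172, 0.225 and 0.408, so the numbers were taken to pair these 2 groups, and the study's legends give 4 donor mice. Libraries with unlike numbers were not correlated for comparison. Nothing in the labels says that a library is a separate animal, so p-values measure the spread between these libraries. No 2 libraries of the same group agreed within sampling noise.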

Additional observations from a re-analysis of the deposited data

Results flagged for a closer look

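Libraries standing apart within their group of 4 were sought by the gap of the highest or lowest library to its neighbour, as a share of the group's range; gaps past Dixon's critical value at the 95% level are given. Of 126 groups of values 16 passed, where chance at 1 in 20 gives 6.3, and 10 of the 16 were on MNA replicate 2.

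In MNA replicate 2 Gsta3 (gap 0.880, 1.68 CPM), Gsto1 (0.919, 160.4 CPM), Esd (0.876, 1043 CPM) and Adh5 (0.858, 100.4 CPM) were the highest of the MNA libraries. Gclc (0.952, 63.4 CPM), G6pdx (0.864, 184 CPM), Pgd (0.904, 209 CPM), Glo1 (0.857, 73.5 CPM), Abcc3 (0.957, 9.38 CPM) and Nfe2l2 (0.838, 369 CPM) were the lowest there. These are the values that lay near the DMSO level, and their cause was not tested.

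Olaparib replicate 4 was the highest olaparib library for Gsta3 (0.851, 14.3 CPM), Gsta2 (0.842, 11.5 CPM) and Acy3 (0.871, 6.51 CPM), and olaparib replicate 1 was the lowest for Nfe2l2 (0.861, 655 CPM). DMSO replicate 2 was the lowest DMSO library for Gsta4 (0.919, 0.0688 CPM, 2 counts) and DMSO replicate 3 for Gss (0.830, 15.1 CPM).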

How the results depend on the processing

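No named gene of the other lists reversed direction under the 19 alternatives, in the comparison with DMSO that named it. Of these alternatives 1 was chosen after seeing the data. Among the 9 genes, Mgst1 had no settled direction for olaparib against DMSO (log2 fold change 0.03 ± 0.15, 95% interval -0.28 to 0.33). Of 448 values of the 8 transferase genes that passed the filter 12 moved by more than the replicate spread, those of Gsta3 and Gsto1 in settings without MNA replicate 2, and of 740 values of other named genes 74 lost their call. For olaparib against DMSO, leaving out 1 library gave 4 to 5 of the 9 genes called higher and 0 to 1 lower, and 28 to 41 other glutathione genes higher and 4 to 10 lower. With 2 groups alone 1 of the 9 and 10 others were lower, and 1 and 11 without MNA replicate 2 under the replicate block. Of all genes 2834 of 12596 and 2962 of 13023 were lower in these settings. For MNA against DMSO, 2 groups alone gave 0 and 0 of the 9 and 0 and 0 of the others. Leaving out 1 library gave 1 to 4 higher and 0 to 4 lower of the 9, and 12 to 38 and 0 to 20 of the others. Others lower were 14 with the replicate block, 20 with it and without MNA replicate 2, and 19 without that library in 2 groups alone. Beside these, 1984 of 12849, 3547 of 13023 and 3234 of 12589 genes were lower. For olaparib against MNA, of the 8 genes tested 5 were higher by DESeq2, 5 (and 2 lower) without MNA replicate 2 under the block, and 6 (and 2 lower) without it in 2 groups alone. All genes called there were 1638 higher and 1716 lower of 12849, 2952 and 2790 of 13023, and 2690 and 2600 of 12796. Leaving out 1 library gave 3 to 5 higher and 0 to 2 lower. Others lower were 3 with 2 groups alone, 3 with no filter, 17 and 18 without MNA replicate 2 (block, 2 groups alone), and 2 to 17 leaving out 1 library, with 19 to 30 higher. With 2 groups alone 847 of 12580 genes were lower. Where no share over all genes stands beside a count, nothing is read from it. The causes were not tested. MNA libraries correlated with same-numbered DMSO libraries at r = -0.009 to 0.277 and with olaparib libraries at r = 0.070 to 0.392. Deviations were taken from means that include MNA replicate 2, so these values cannot decide whether numbers pair MNA. With the replicate block 3 of the 9 genes were called higher and 3 lower with MNA than with DMSO, beside 2184 and 1984 of 12849 genes. Between olaparib and MNA the block called 4 higher and 0 lower, beside 1502 and 1350. It ended the call of Gstm1 as lower with MNA than with DMSO (-0.32 ± 0.12) and called Mgst1 lower there (-0.42 ± 0.09) and higher with olaparib than with MNA (0.45 ± 0.09). As above, calls of the 9 genes are a description. For olaparib against DMSO, where numbers were taken to pair, the block changed no call of a named gene. Depth limits Gstt1 and the DMSO levels of Gsta4, Gsta1, Gsta2 and Gstp3.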
